A study of Homo sapiens with 6 samples.

Results

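The Wnt ligand, receptor and secretion genes were followed from undifferentiated human embryonic stem cells through nascent mesoderm to smooth muscle cells. The members were every gene whose symbol is WNT or FZD followed by a number (and A or B for some ligands), together with WLS, PORCN, LRP5, LRP6, ROR1, ROR2 and RYK, which gives 36 genes in the RefSeq annotation. Of these, 35 were measured among the 18417 genes tested: 19 Wnt ligands, 10 Frizzled receptors, 5 co-receptors or alternative receptors and 1 secretion gene (WLS). PORCN, the enzyme that attaches a lipid to Wnt proteins, had no probe set of its own and was not measured here. Each measured member was represented by 1 probe set.

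All 6 samples came from WA09, an established line of human embryonic stem cells, with 2 arrays in each of 3 groups and total RNA from about 5000000 cells behind each array. Undifferentiated cells (hESC) were kept in StemPro, a defined medium. ISL1-positive nascent mesoderm (INM) and smooth muscle cells (SMC) were made from them by 4 and 21 days in defined medium with Wnt3a protein at 25 ng/ml and BMP4 protein at 50 ng/ml, so every differentiated sample had received a Wnt ligand from outside. No array of cells differentiated without Wnt3a was analysed here, so the added Wnt3a, the added BMP4, time in culture and cell state cannot be told apart. Whether replicates were separate cultures is not stated in the labels, and the spread behind the p-values may therefore be technical.

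Wnt proteins are secreted glycoproteins that carry a lipid and are taken to the cell surface by the carrier protein WLS. In the canonical pathway a Wnt binds a Frizzled together with LRP5 or LRP6, and beta-catenin is then spared from destruction and acts with TCF and LEF factors on target genes. In non-canonical signalling, ligands such as WNT5A act through Frizzleds with ROR1, ROR2 or RYK on cell polarity and movement. Wnt signals are required for the formation of mesoderm in the early embryo, and they take part in the development of smooth muscle.

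The labelled cell types were set against marker genes first. On the log2 scale, on which a difference of 1 is a 2-fold difference, 10 of 12 pluripotency markers fell from hESC to INM and 10 of 12 markers of ISL1-positive mesoderm rose, with ISL1 itself up by 4.10 ± 0.13 (SE, n = 2 arrays a group). From hESC to SMC, 10 of 12 smooth muscle markers rose, led by ACTA2 (smooth muscle actin) with 6.64 ± 0.33. MYH11 (-0.13, adjusted p = 0.507 in limma) and DES (0.47, adjusted p = 0.0771) were not called. Of the 12, 7 were already higher in INM than in hESC, with ACTA2 up by 4.99, and 1, ACTG2, was lower. From INM to SMC, 5 of the 12 rose and 1, MYOCD, fell (-1.74). Markers of other cells moved as well: 7 of 9 trophoblast and amnion markers rose from hESC to INM and 6 of 9 fell from INM to SMC. ISL1 is on that list as well as on the mesoderm list, and is counted among the 7 and the 6. Of 10 fibroblast markers, 9 rose from hESC to SMC. The replicates agreed less well in INM, where 700 genes differed by more than 1 log2 unit between the arrays, than in hESC (16 genes) or SMC (11 genes). The members had a pooled SD of 0.306 log2 units over the INM arrays, 0.116 over hESC and 0.0991 over SMC. Among all genes 3486 were higher and 2731 lower in INM than in hESC on the deposited scale, against 3032 and 3558 after each array was centred on its median.

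From hESC to INM, 11 of the 35 members rose and 4 fell, where 18.9% of all genes tested rose and 14.8% fell. A call here means limma with the Benjamini-Hochberg adjustment over all genes and a threshold of 0.05. The risers were WLS, 5 ligands (WNT5A, WNT5B, WNT7B, WNT9B, WNT11), 4 Frizzleds (FZD1, FZD2, FZD6, FZD8) and LRP5, and those that fell were FZD3, FZD5, FZD7 and LRP6. From INM to SMC the balance turned: 10 members fell and 1 rose, beside 11.1% and 9.94% of all genes. ROR2 was the riser, and WLS, 5 ligands (WNT3, WNT4, WNT5A, WNT5B, WNT9B), FZD3, FZD5, FZD6 and ROR1 fell. Between SMC and hESC, 8 members were higher in SMC and 5 lower, beside 19.7% and 17.6% of all genes. The median change of the members was 0.12, -0.14 and -0.12 in these 3 comparisons, beside -0.03, -0.02 and -0.05 for all genes. Single arrays mattered for the counts: without hESC replicate 2, 7 members rose to INM, and without INM replicate 2, 7 fell. The 10 falls from INM to SMC became 6 without either hESC array and 5 without either SMC array. The 8 members higher in SMC than in hESC became 4 without hESC replicate 1 or SMC replicate 1, 5 without hESC replicate 2 and 3 without SMC replicate 2.

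**Figure D1:**
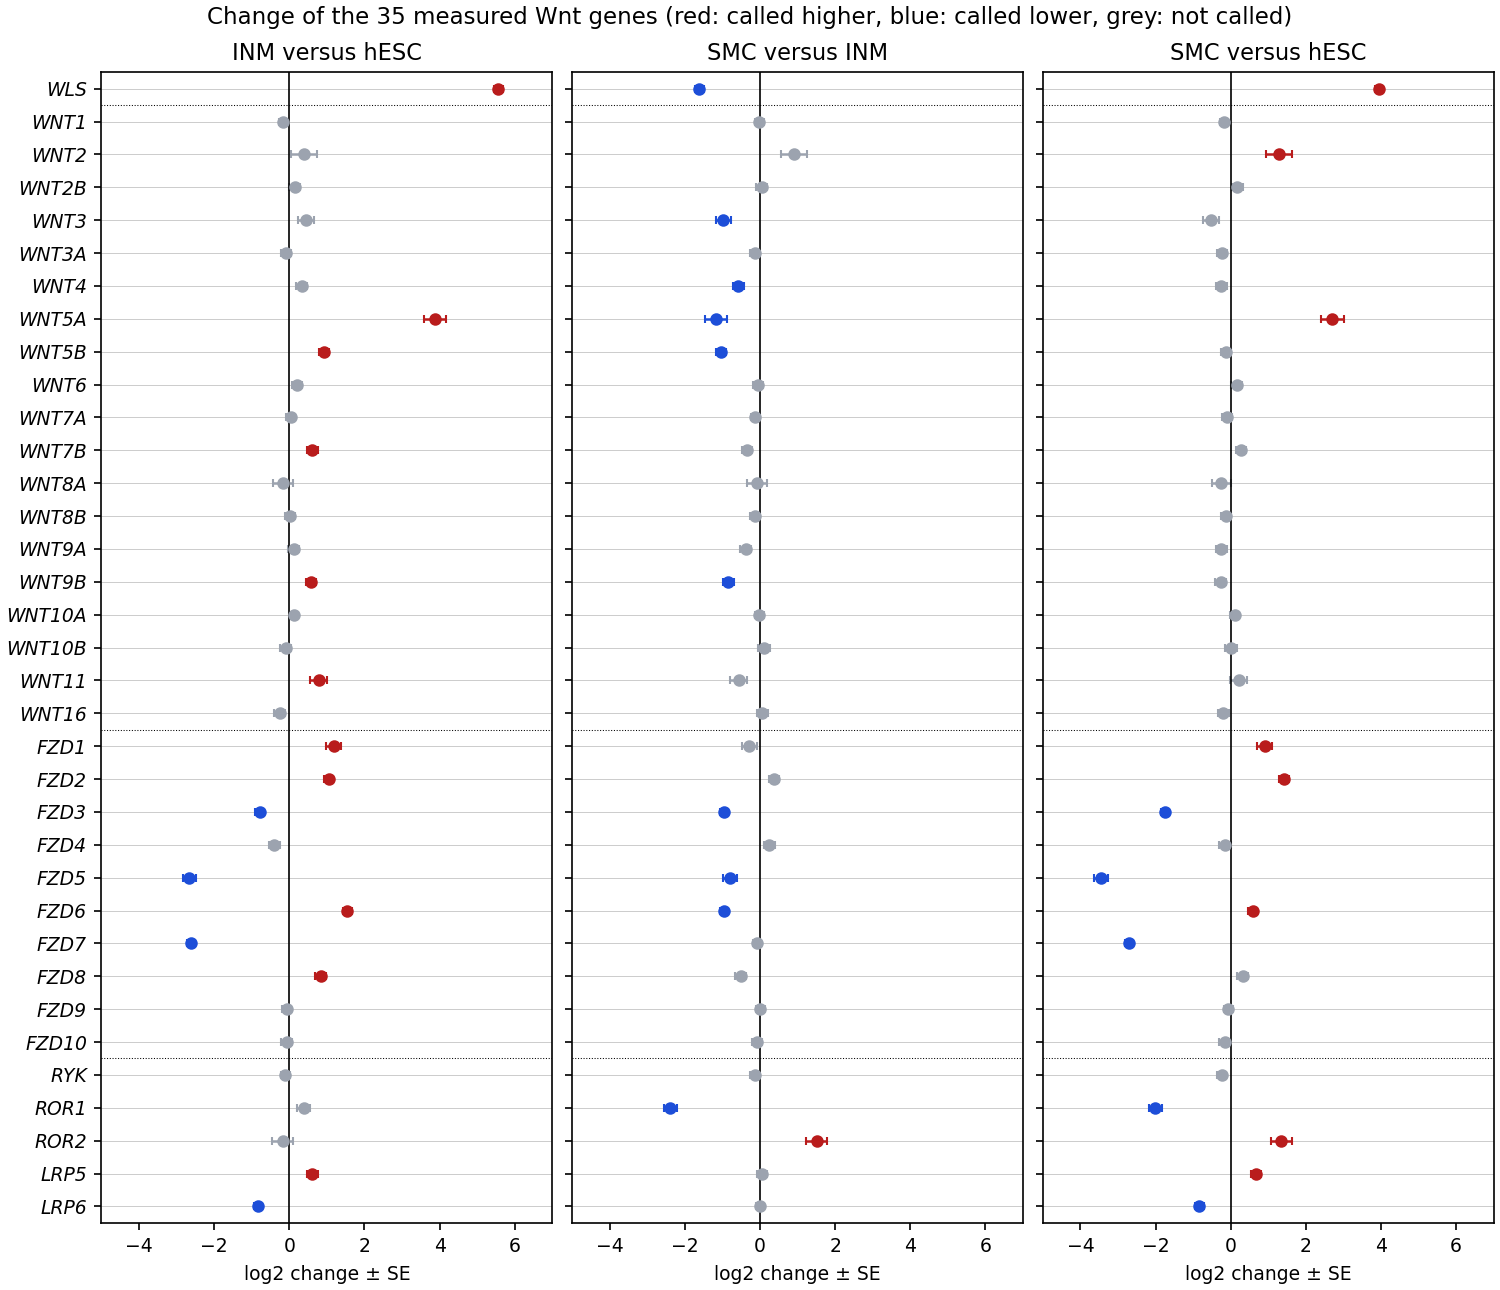
Log2 change ± SE of each of the 35 measured members in the 3 comparisons (n = 2 arrays a group), with dotted lines between secretion, ligand, Frizzled and other receptor genes. Red points are called higher and blue points called lower at an adjusted p under 0.05. WLS lies at 5.56 in INM versus hESC, and no ligand is blue in either comparison with hESC.

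The 3 comparisons share arrays, so a gene high in INM alone enters 2 of them with opposite signs. WLS, WNT5A, WNT5B, WNT9B and FZD6 were called higher at the first step and lower at the second. FZD3 and FZD5 were called lower at both. In all, 20 members were called in at least 1 comparison and 15 in none. With 2 arrays a group, an exact two-sided permutation test of a single gene cannot go below p = 0.333, so the calls rest on limma's spread pooled over groups and genes. An array of the group not compared enters a comparison only through that spread. Leaving it out can end a call while the log2 change stays the same. In bulk RNA, fewer cells of a type and less RNA per cell cannot be told apart.

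Promoter sequences are shown for 4 members that carry the main contrasts: WLS, with the largest rise from hESC to INM; FZD5, which with FZD7 fell most in that comparison; and ROR1 and ROR2, related receptors called in opposite directions from INM to SMC. Each is the 250 bases before a transcription start, read 5′ to 3′ on the gene's strand from RefSeq (GRCh38.p14), with CG dinucleotides in capitals. WLS lies at chr1:68232524-68232773 (minus strand), FZD5 at chr2:207769907-207770156 (minus), ROR1 at chr1:63773767-63774016 (plus) and ROR2 at chr9:91950229-91950478 (minus).
WLS: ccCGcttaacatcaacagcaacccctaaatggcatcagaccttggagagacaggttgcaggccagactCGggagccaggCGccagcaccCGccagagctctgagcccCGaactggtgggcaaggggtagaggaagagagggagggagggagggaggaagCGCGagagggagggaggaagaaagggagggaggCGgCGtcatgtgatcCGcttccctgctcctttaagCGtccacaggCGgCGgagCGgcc
FZD5: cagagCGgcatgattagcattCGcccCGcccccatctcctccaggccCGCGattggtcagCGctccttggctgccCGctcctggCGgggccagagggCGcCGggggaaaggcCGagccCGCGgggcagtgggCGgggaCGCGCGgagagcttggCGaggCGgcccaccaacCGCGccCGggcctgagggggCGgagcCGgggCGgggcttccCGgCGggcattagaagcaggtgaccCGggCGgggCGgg
ROR1: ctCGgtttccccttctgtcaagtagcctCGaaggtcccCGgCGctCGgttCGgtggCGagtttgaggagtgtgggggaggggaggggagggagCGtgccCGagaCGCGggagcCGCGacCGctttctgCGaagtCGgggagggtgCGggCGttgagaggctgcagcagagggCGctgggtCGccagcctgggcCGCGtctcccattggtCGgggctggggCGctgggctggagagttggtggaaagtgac
ROR2: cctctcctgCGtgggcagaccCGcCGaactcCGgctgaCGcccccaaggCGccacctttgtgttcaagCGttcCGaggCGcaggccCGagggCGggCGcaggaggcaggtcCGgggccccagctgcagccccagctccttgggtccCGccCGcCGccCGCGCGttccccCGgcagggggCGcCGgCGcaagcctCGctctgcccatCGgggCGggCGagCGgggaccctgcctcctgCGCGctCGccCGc
These windows held 14, 30, 24 and 32 CG dinucleotides in that order. A further RefSeq start of WLS, not shown, has its window at chr1:68232547-68232796, with 10 CG dinucleotides. RefSeq promoters were used for 26 of the member genes, with 30 start sites. Member windows on a chromosome that the set of all promoters keeps were left out, so the sets were not built alike. The member windows held a median of 25 CG dinucleotides, beside 11 over all 35114 promoters of that length. Their median GC content was 72.2% beside 58.0%. The letters CTTTGA or CTTTGT, the core bound by TCF and LEF factors, were searched on both strands with overlaps allowed. They were found in 3 of the 30 member windows (FZD1, ROR2 and WNT8B) and in 22.8% of all promoters. In ROR2 the match ends 189 bases before the start. These letters are a description of the windows and show no binding.

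WLS showed the largest change of any member against hESC. Its log2 signal was 6.36 and 6.45 (hESC), 11.98 and 11.96 (INM) and 10.42 and 10.29 (SMC). The groups did not overlap, and INM stood highest. WLS rose 47.3-fold from hESC to INM (log2 change 5.56 ± 0.11 SE, adjusted p = 5.22e-06) and was then 3.07-fold lower in SMC than in INM (-1.62, adjusted p = 0.000332). SMC still stood 15.4-fold above hESC (adjusted p = 1.22e-05). These calls held in all 14 alternatives run, not all of them distinct, which included leaving out each array in turn. The trophoblast and amnion markers were also highest in INM. Their mean log2 signal was 5.89 to 5.98 in hESC, 8.41 to 8.84 in INM and 6.68 to 6.73 in SMC. Above the level of olfactory receptor genes stood 2 to 3, 7 to 8 and 5 of these 9 markers. The mean of the ISL1-positive mesoderm markers was highest in INM too, at 6.73 to 6.90, 9.47 to 10.35 and 9.20 to 9.23. The part of either cell type in the WLS change was not tested.

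The array gives no detection flag, so 341 olfactory receptor genes, which these cells are not known to use, served as a reference for low signal. Their 95th percentile was 6.24 and 6.13 on the hESC arrays, 5.75 and 5.67 for INM, and 5.86 and 5.84 for SMC, so the limit itself was lower in the differentiated groups. Ligands were often near it: 11 of 19 ligands stood above it on both hESC arrays, 15 on both INM arrays and 16 on both SMC arrays, while all 10 Frizzleds did in each group. With the 99th percentile as the limit, which also was highest in hESC, 4, 13 and 10 ligands stood above it. A higher count therefore need not mean a higher signal: WNT3A entered the INM and SMC counts while its mean was 6.29 in hESC, 6.20 in INM and 6.06 in SMC. WNT8A, WNT8B and WNT16 did not exceed the 95th percentile on both arrays of any group. WNT2, WNT2B, WNT3A, WNT5A and WNT7B did not exceed it on both hESC arrays. No fold against hESC is given for WNT2, WNT5A and WNT7B, whose hESC means lay below that percentile averaged over the arrays compared.

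Of the ligands, 5 of 19 rose from hESC to INM, beside 18.9% of all genes, and 14 were not called. Without hESC replicate 2 the risers were WNT5A and WNT5B alone, since WNT7B, WNT9B and WNT11 lost their calls, and 3 ligands rose without hESC replicate 1 or either SMC array. With INM replicate 1 left out, WNT2, WNT3 and WNT4 were called higher as well. WNT5A, the best-known non-canonical ligand, which shapes the elongating embryo, had log2 signals of 5.25 and 5.46 (hESC), 8.72 and 9.73 (INM) and 8.08 and 8.02 (SMC). Both INM arrays lay above both SMC arrays, and hESC lay far below, although the INM arrays differed by 1.01. WNT5A was higher by 3.87 ± 0.30 (SE) in INM (adjusted p = 0.000317) and by 2.70 in SMC (adjusted p = 0.000844) than in hESC. It was lower in SMC than in INM by 1.17 (adjusted p = 0.0382), a call lost without either hESC array (adjusted p = 0.0852) or without SMC replicate 1 or 2 (0.166 and 0.187). Without INM replicate 2 the difference between SMC and INM was -0.67.

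WNT5B, a close relative of WNT5A, was at 6.41 and 6.43 (hESC), 7.20 and 7.48 (INM) and 6.27 and 6.33 (SMC). It was high in INM alone, and its hESC and SMC arrays lay close together. WNT5B rose 1.89-fold to INM (0.92 ± 0.13 SE, adjusted p = 0.00297) and was 2.06-fold lower in SMC than in INM (adjusted p = 0.00296). Its difference between SMC and hESC was -0.12 (adjusted p = 0.508).

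WNT9B, known for inducing kidney tubules, was at 6.84 and 6.55 (hESC), 7.34 and 7.20 (INM) and 6.48 and 6.37 (SMC). INM was highest, and the groups did not overlap. WNT9B was higher in INM than in hESC by 0.57 ± 0.14 (SE, adjusted p = 0.0208) and lower in SMC than in INM by 0.84 (adjusted p = 0.00816). The first call was lost on leaving out hESC replicate 2 (adjusted p = 0.113) and without either SMC array (0.0518). The second was lost without SMC replicate 1 (0.0603) or 2 (0.0833).

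WNT11, a ligand of cell movements in gastrulation and heart formation, was at 6.62 and 6.41 (hESC), 6.95 and 7.64 (INM) and 6.79 and 6.67 (SMC). The INM arrays were the highest, 0.70 apart. Its rise to INM was 0.78 ± 0.23 (SE, adjusted p = 0.0391). The call was lost under 7 of the 14 alternatives, with adjusted p of 0.0501 after median centring, 0.0518 with the replicate number as a block, 0.0811 without either SMC array, 0.117 without hESC replicate 1 and 0.181 without hESC replicate 2. Without INM replicate 2 the rise was 0.44. These 7 alternatives are not all distinct, since the fits without either SMC array equal the fit of the hESC and INM arrays only.

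WNT7B, a ligand of lung and bone development, was at 5.85 and 5.66 (hESC), 6.45 and 6.29 (INM) and 5.93 and 6.12 (SMC). Its INM arrays were the highest, and its hESC arrays the lowest. The rise to INM was 0.62 ± 0.14 (SE, adjusted p = 0.0148), a call lost on leaving out hESC replicate 1 (0.0506) or 2 (0.0924).

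WNT3 and WNT4 were called at the second step and, with all 6 arrays, not at the first. WNT3, a ligand needed for the primitive streak, was at 7.30 and 7.46 (hESC), 7.51 and 8.14 (INM) and 6.89 and 6.81 (SMC). Both SMC arrays were below all others. WNT3 was 1.96-fold lower in SMC than in INM (-0.97 ± 0.21 SE, adjusted p = 0.0204). Its difference between INM and hESC was 0.44 (adjusted p = 0.15), with 0.75 (adjusted p = 0.00337) without INM replicate 1 and 0.13 (adjusted p = 0.479) without INM replicate 2.

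WNT4, a ligand of kidney and gonad development, was at 6.71 and 6.72 (hESC), 6.87 and 7.22 (INM) and 6.48 and 6.45 (SMC). SMC was again the lowest. From hESC to INM, WNT4 changed by 0.33 (adjusted p = 0.123), with 0.51 (0.0122) without INM replicate 1 and 0.15 (0.347) without INM replicate 2. It was lower in SMC than in INM by 0.58 ± 0.14 (SE, adjusted p = 0.0333). The WNT3 and WNT4 calls were lost without either hESC array (adjusted p = 0.0538 and 0.0771) and without either SMC array (WNT3 0.111 and 0.138, WNT4 0.156 and 0.181).

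WNT2, a ligand of lung and heart mesoderm, was the ligand called in SMC versus hESC beside WNT5A. Its signals were 5.37 and 5.50 (hESC), 5.23 and 6.41 (INM) and 6.71 (both SMC). The INM arrays were 1.19 apart, 1 at the hESC level and 1 near SMC. WNT2 was higher in SMC than in hESC by 1.28 ± 0.35 (SE, adjusted p = 0.028), a call lost without any 1 of the hESC and SMC arrays (adjusted p from 0.107 to 0.141).

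The other 11 ligands (WNT1, WNT2B, WNT3A, WNT6, WNT7A, WNT8A, WNT8B, WNT9A, WNT10A, WNT10B and WNT16) were called in no comparison. WNT3A, the gene of the ligand that was added as a protein, ran from 5.96 to 6.40 over the 6 arrays around the 95th percentile of the olfactory receptors. WNT8A had the widest range of these ligands, 0.81, and WNT10A the narrowest, 0.18. No ligand was called lower in INM or in SMC than in hESC by limma, and at an unadjusted p under 0.05 the counts were 0 and 1. At an alternative scaling or fit, or without 1 array, WNT16 and WNT8A (INM lower, 1 array left out) and WNT3 (SMC lower) became calls against hESC.

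**Figure D2:**
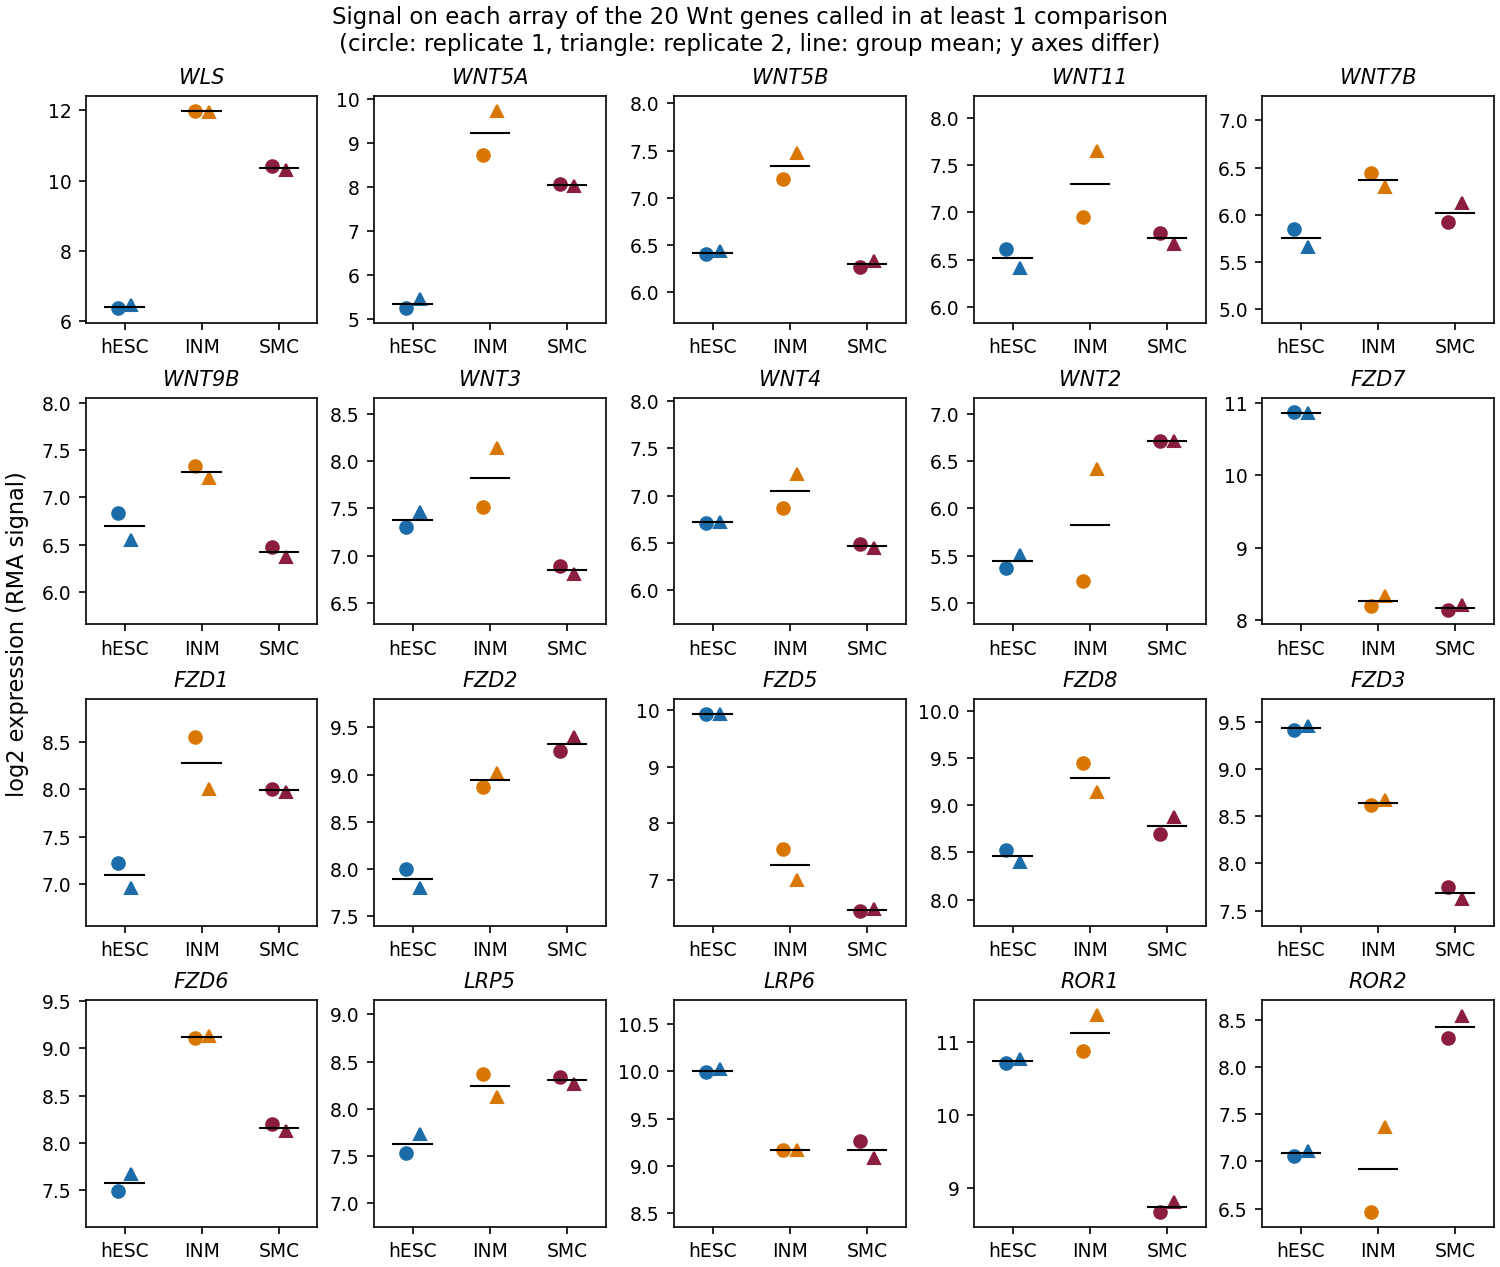
Deposited log2 signal of the 20 members called in at least 1 comparison, on each of the 6 arrays, with circles for replicate 1, triangles for replicate 2 and a line at the group mean (the y axes differ in position). The INM arrays of WNT2 lie 1.19 apart, and those of WLS lie between 11.96 and 11.98.

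Frizzled receptors changed in both directions, with 4 of 10 rising and 3 falling from hESC to INM, beside 18.9% and 14.8% of all genes. Frizzleds are grouped by sequence into FZD1, FZD2 and FZD7, into FZD5 and FZD8, into FZD3 and FZD6, and into FZD4, FZD9 and FZD10. This grouping was applied after the values had been seen and serves as an order of description. In each of the first 3 groups, 1 member fell while another rose. In the last group, none was called in any comparison.

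FZD7, a Frizzled prominent in pluripotent stem cells, was at 10.87 (both hESC), 8.19 and 8.33 (INM) and 8.14 and 8.20 (SMC). It dropped at the first step and stayed low, with INM and SMC overlapping. FZD7 was 6.12-fold lower in INM than in hESC (-2.61 ± 0.11 SE, adjusted p = 4.93e-05) and 6.50-fold lower in SMC (adjusted p = 2.43e-05). The difference between SMC and INM was -0.09 (adjusted p = 0.639).

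Its relatives FZD1 and FZD2 went the other way. FZD1 was at 7.22 and 6.96 (hESC), 8.55 and 8.0 (INM) and 8.01 and 7.97 (SMC), and rose 2.28-fold to INM (1.19 ± 0.20 SE, adjusted p = 0.00553). FZD2 was at 8.0 and 7.80 (hESC), 8.87 and 9.01 (INM) and 9.25 and 9.40 (SMC). Both genes were lowest in hESC without overlap. FZD2 was 2.06-fold higher in INM (1.04 ± 0.13 SE, adjusted p = 0.00188) and 2.69-fold higher in SMC (adjusted p = 0.000385) than in hESC. FZD1 was 1.87-fold higher in SMC than in hESC (adjusted p = 0.0128), a call lost without hESC replicate 2 (0.0906), SMC replicate 1 (0.0812) or SMC replicate 2 (0.0753).

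FZD5, a receptor used by canonical and non-canonical ligands, was at 9.93 and 9.92 (hESC), 7.54 and 7.0 (INM) and 6.45 and 6.48 (SMC). It fell at both steps, and the groups did not overlap. FZD5 was 6.31-fold lower in INM than in hESC (-2.66 ± 0.18 SE, adjusted p = 0.000202) and 10.99-fold lower in SMC than in hESC (-3.46, adjusted p = 4.92e-05). The further fall from INM to SMC was 0.80 on the log2 scale (adjusted p = 0.0254). That call was lost without either hESC array (0.0654) and without SMC replicate 1 (0.144) or 2 (0.138), and without INM replicate 1 the change was -0.53.

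FZD8, the closest relative of FZD5, was at 8.53 and 8.40 (hESC), 9.45 and 9.13 (INM) and 8.69 and 8.87 (SMC). INM was highest. FZD8 rose 1.78-fold to INM (0.83 ± 0.15 SE, adjusted p = 0.00705), a call lost without hESC replicate 2 (0.0562). Its difference between SMC and INM was -0.51 (adjusted p = 0.0551).

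FZD3 and FZD6 are receptors known for planar cell polarity. FZD3 was at 9.41 and 9.46 (hESC), 8.61 and 8.67 (INM) and 7.75 and 7.62 (SMC). FZD6 was at 7.49 and 7.67 (hESC), 9.11 and 9.13 (INM) and 8.20 and 8.12 (SMC). FZD3 stepped down from group to group, whereas FZD6 was highest in INM.
FZD3 was 1.73-fold lower in INM than in hESC (-0.79 ± 0.11 SE, adjusted p = 0.00293) and a further 1.94-fold lower in SMC (adjusted p = 0.00233). FZD6 rose 2.91-fold to INM (1.54 ± 0.12 SE, adjusted p = 0.000289) and was 1.94-fold lower in SMC than in INM (adjusted p = 0.00271). SMC stood 0.58 above hESC for FZD6 on the log2 scale (adjusted p = 0.00891), a call lost without hESC replicate 1 (0.066), SMC replicate 1 (0.073) or SMC replicate 2 (0.0541).

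FZD4, FZD9 and FZD10 were not called. FZD4 was at 6.68 and 6.58 (hESC), 6.04 and 6.43 (INM) and 6.46 and 6.50 (SMC), with a change of -0.40 to INM (adjusted p = 0.088) that was called after median centring (0.0454) and without INM replicate 2 (0.00676). FZD9 ran from 7.56 to 7.78 and FZD10 from 6.81 to 7.13 over the 6 arrays. These ranges are no wider than the gap between replicates of several members.

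**Figure D3:**
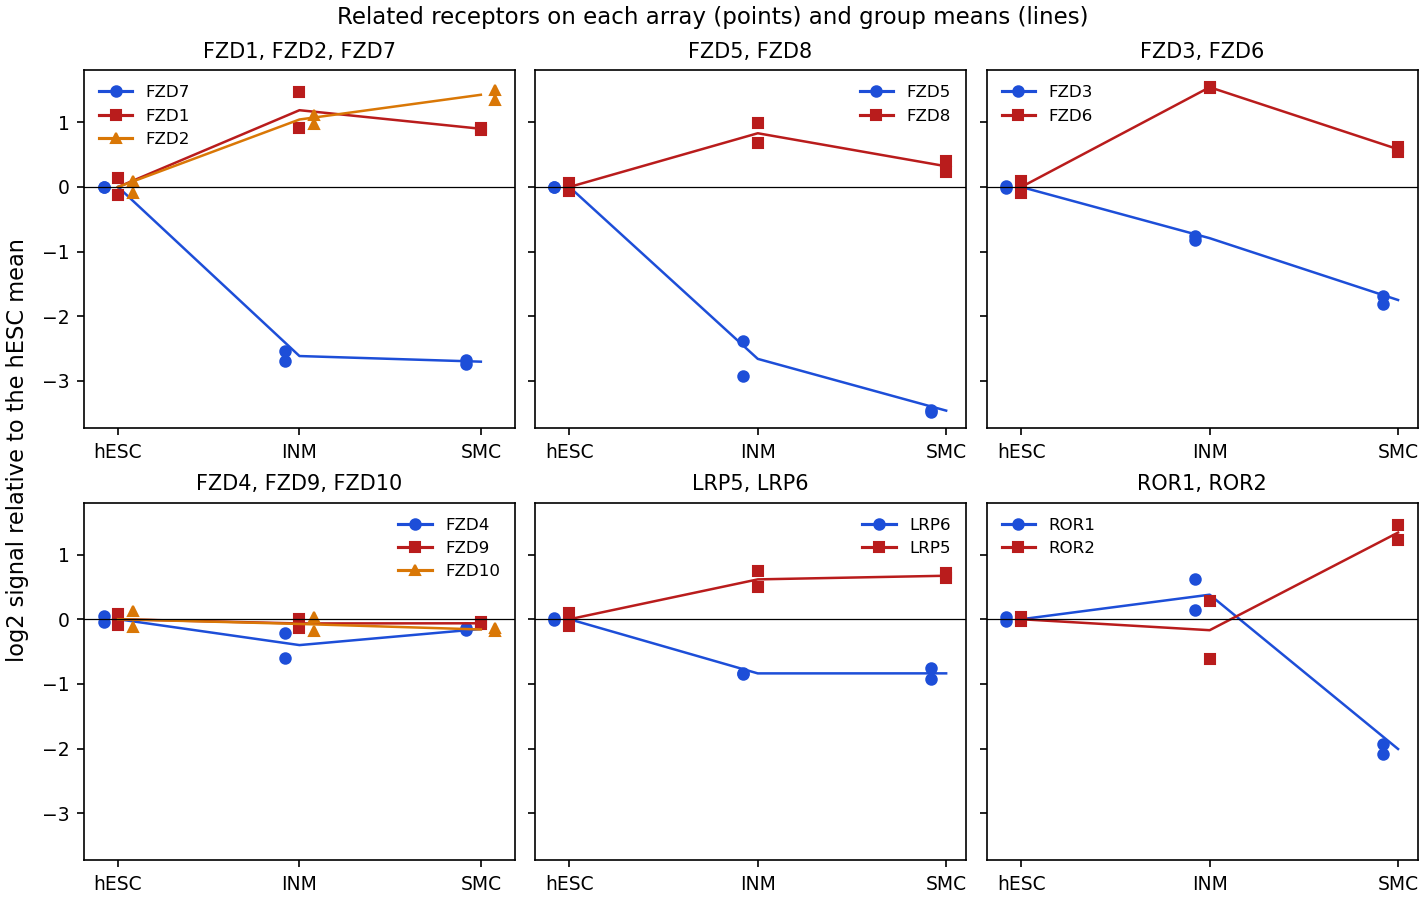
Log2 signal of related receptors on each array (points) and group means (lines), set relative to each gene's hESC mean. FZD7, FZD5 and FZD3 lie below 0 in INM and SMC while FZD1, FZD2, FZD8 and FZD6 lie above it, LRP6 and LRP5 part in the same way, and ROR1 and ROR2 part in SMC.

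The canonical co-receptors LRP5 and LRP6 moved apart at the first step. LRP6 was at 9.995 and 10.02 (hESC), 9.17 (both INM) and 9.26 and 9.08 (SMC). LRP5 was at 7.53 and 7.73 (hESC), 8.37 and 8.12 (INM) and 8.34 and 8.26 (SMC). For both genes hESC lay apart, while INM and SMC overlapped. LRP6 was 1.79-fold lower in INM than in hESC (-0.84 ± 0.12 SE, adjusted p = 0.00268) and 1.79-fold lower in SMC (adjusted p = 0.00196). LRP5 was 1.53-fold higher in INM (0.62 ± 0.14 SE, adjusted p = 0.016) and 1.59-fold higher in SMC (adjusted p = 0.00964) than in hESC. The INM call of LRP5 was lost after quantile normalization (0.0563) and without hESC replicate 1 (0.107), and its SMC call without hESC replicate 1 (0.0727), SMC replicate 1 (0.0748) or SMC replicate 2 (0.0566).

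ROR1 and ROR2, receptor tyrosine kinases that bind WNT5A, parted at the second step. ROR1 was at 10.72 and 10.78 (hESC), 10.89 and 11.37 (INM) and 8.67 and 8.81 (SMC). ROR2 was at 7.06 and 7.11 (hESC), 6.46 and 7.37 (INM) and 8.31 and 8.54 (SMC). SMC lay apart from the other groups in both genes, low for ROR1 and high for ROR2. ROR1 was 5.23-fold lower in SMC than in INM (-2.39 ± 0.17 SE, adjusted p = 0.000402) and 4.02-fold lower than in hESC (adjusted p = 0.000308). ROR2 was 2.85-fold higher in SMC than in INM (1.51 ± 0.28 SE, adjusted p = 0.0121) and 2.53-fold higher than in hESC (adjusted p = 0.0101). The first ROR2 call was lost without SMC replicate 1 (0.0715) or 2 (0.103). The second was lost without hESC replicate 1 (0.0701), hESC replicate 2 (0.0613) or SMC replicate 2 (0.0783).
From hESC to INM, ROR1 differed by 0.38 (adjusted p = 0.141) and ROR2 by -0.17 (adjusted p = 0.672). The INM arrays of ROR2 were 0.90 apart and lay on either side of hESC. With INM replicate 1 left out the changes were 0.62 for ROR1 (adjusted p = 0.00697) and 0.28 for ROR2 (0.152), and with INM replicate 2 left out 0.14 for ROR1 (0.434) and -0.62 for ROR2 (0.0103). In these fits the INM group is 1 array, and the spread comes from hESC and SMC.
RYK, a Wnt receptor with an inactive kinase domain, was at 10.52 and 10.66 (hESC), 10.42 and 10.55 (INM) and 10.38 and 10.31 (SMC), and was not called. After quantile normalization it was lower in INM (-0.36, adjusted p = 0.0428) and in SMC (-0.44, adjusted p = 0.0193) than in hESC.

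The SMC values stand beside a rise of fibroblast markers, whose mean log2 signal was 6.70 to 6.74 in hESC, 8.86 to 8.98 in INM and 10.66 on both SMC arrays. Endothelial markers averaged 6.16 to 6.20, 6.30 to 6.34 and 6.86 to 6.90, with 3 to 4, 6 and 8 of 10 above the olfactory receptor range. The limit of that range was lower in INM and SMC than in hESC. In SMC versus hESC, 4 of the 10 were called higher and 6 were not called. Whether fibroblasts or endothelial cells were present, and any part of them in the ROR1, ROR2, FZD2 and WNT2 changes, was not tested. The INM arrays differed in mesoderm markers too, with a mean of 9.47 on replicate 1 and 10.35 on replicate 2. The ligands WNT2, WNT3, WNT5A, WNT8A and WNT11 and the receptors ROR1 and ROR2 were higher on replicate 2 by 0.48 to 1.19, and FZD1 and FZD5 were higher on replicate 1 by 0.55 and 0.54. With 1 INM array left out, the remaining INM array is assumed to vary like the hESC and SMC arrays, whose spread over all genes (pooled SD 0.149 and 0.132) is below that of INM (0.313). Such fits call more genes, and a call that they keep or gain is weak evidence about the INM group.

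The rest of the pathway was read from 7 lists of genes. The lists overlap, so their counts are not independent. DKK1, APCDD1, NOTUM, LGR5, RNF43, ZNRF3, NKD1, AXIN2 and LEF1 are on the target list and also on another list. MSX2 is on the target list and also among the markers of ISL1-positive mesoderm. For all lists, the shares of all genes tested are the background. From hESC to INM 18.9% rose and 14.8% fell, and from INM to SMC 9.94% rose and 11.1% fell. In SMC versus hESC 19.7% were higher and 17.6% lower. Of 20 canonical target genes, 12 rose from hESC to INM, 1 fell (CDX4) and 7 were not called. Their median change was 1.31, beside -0.03 for all genes. MSX2, a homeobox factor, rose by 5.82 ± 0.14 (SE, adjusted p = 6.76e-06), LEF1 by 5.24 ± 0.14 (adjusted p = 8.39e-06) and DKK1 by 5.93 ± 0.53 (adjusted p = 0.000553). From INM to SMC, 7 of the 20 fell and 1 rose (MYC), with RNF43 at -2.65, MSX2 at -2.32 and NKD1 at -1.58. AXIN2, a feedback inhibitor often used as a readout of beta-catenin, fell by 0.99 from INM to SMC (adjusted p = 0.0255). AXIN2 was not called from hESC to INM (0.62, adjusted p = 0.0775) or in SMC versus hESC (-0.37, adjusted p = 0.244). Against hESC, 10 targets were higher and 4 lower in SMC, and the 4 became 2 without hESC replicate 1 or SMC replicate 2. Without INM replicate 1, 11 fell from INM to SMC. The MYC call was the 1 rise, and no rise was called without any 1 of the hESC and SMC arrays.

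Genes of the list of Wnt antagonists and Wnt-inactivating enzymes rose and fell. From hESC to INM, 8 of 20 rose, led by DKK1, APCDD1 (2.86) and DKK2 (1.91), and 3 fell: WIF1 (-1.97), SFRP2 (-1.95) and DRAXIN (-1.19). SFRP2, a Wnt-binding protein, changed again from INM to SMC, by -3.76 ± 0.28 (SE, adjusted p = 0.000425), and by -5.70 between hESC and SMC. DKK1, which blocks LRP5 and LRP6, remained high in SMC, at 6.35 above hESC. The count of antagonists that rose to INM was 5 without any 1 of the hESC and SMC arrays, and the falls from INM to SMC went from 4 to 2 without either SMC array.

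R-spondins strengthen Wnt signals by removing the ubiquitin ligases RNF43 and ZNRF3, which take Frizzleds off the surface. Of the 9 genes of this list, 4 rose from hESC to INM: RSPO2 (2.90), RSPO3 (2.73), LGR5 (2.52) and RNF43 (2.03). RSPO2 was at 6.69 and 9.60 on the INM arrays, a gap about as wide as its rise. The INM arrays also differed for RSPO3 (6.84 and 8.90) and LGR5 (6.57 and 8.36). From INM to SMC both ligases fell, RNF43 by 2.65 ± 0.13 (SE, adjusted p = 0.000121) and ZNRF3 by 1.01 ± 0.13 (adjusted p = 0.00316), and no gene of the list rose. Against hESC, RSPO2, RSPO3 and LGR5 were higher in SMC and ZNRF3, LGR4 and RNF43 lower. The 3 lower calls became 2 with the replicate block and 1 without hESC replicate 1 or SMC replicate 2. Without either hESC array 1 gene of the list rose to INM, and without SMC replicate 1, SMC replicate 2 or hESC replicate 2 none was called higher in SMC than in hESC. The INM arrays moved the second step, with 3 rises without INM replicate 2 and 7 falls without INM replicate 1.

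Of 15 other surface partners of Wnt proteins, 5 rose and 1 fell (GPC4) from hESC to INM. From INM to SMC 5 rose and 2 fell, and from hESC to SMC 8 rose and 2 fell. ADGRA2, which works with RECK in WNT7 signalling, rose by 3.17 to INM and by a further 1.23 to SMC. SULF1, a heparan sulfate sulfatase, rose by 1.61 and 1.36. GPC4, a glypican, fell at both steps (-1.38 and -2.55). Leaving out any 1 of the hESC and SMC arrays lowered the first count to 3, and the 5 rises to SMC became 8 without INM replicate 1 and 3 without SMC replicate 2. The 2 falls from INM to SMC became 5 without INM replicate 2 and 1 without SMC replicate 1. The 8 rises from hESC to SMC became 5 without hESC replicate 1, hESC replicate 2 or SMC replicate 2.

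Inside the cell, 15 of 24 planar cell polarity and other non-canonical genes rose from hESC to INM and none fell. The median change of this list was 0.46, beside -0.03 for all genes. At an unadjusted p under 0.05 in limma the count of falls was 0, and after quantile normalization 1 fall was called. DAAM2, a formin, rose by 2.41 ± 0.63 (SE, adjusted p = 0.0279) with INM arrays far apart at 9.42 and 7.15, and PRICKLE2 by 2.25 ± 0.35 (adjusted p = 0.0043). The count of 15 was 7 without either hESC array, 9 without either SMC array and 9 to 15 under the alternatives that keep all arrays of the groups compared. From INM to SMC, 7 fell and 1 rose (NFATC4, 0.43, adjusted p = 0.0443). The count of rises was 0 with the replicate block, with group weights, with only the 4 arrays compared and without any 1 array except INM replicate 1, where it was 3. CELSR2 and DAAM1 fell by 1.34 each and VANGL1 by 0.98. Without either SMC array 3 of these falls were called. Of 18 TCF and LEF factors and nuclear partners, 7 rose and 2 fell (TLE1 and TCF7L1) at the first step, and 4 fell and none rose at the second. The rises numbered 3 without either hESC array and 4 after quantile normalization, and the falls 10 without INM replicate 1 and 2 without any 1 of the hESC and SMC arrays. In SMC, LEF1 stood 4.99 above hESC. Of 27 genes of Dishevelled and the destruction complex, 8 rose and 2 fell (CCDC88C and FRAT2) at the first step, and 7 fell and none rose at the second. Those 7 falls became 3 without SMC replicate 1 and 2 without SMC replicate 2, and the falls of the first step were 0 without either hESC array. Without INM replicate 1, 2 genes of this list rose from INM to SMC. At an unadjusted p under 0.05 in limma, rises at the second step numbered 0 for the nuclear partners, 0 for the destruction complex and 0 for the R-spondin list.

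**Figure D4:**
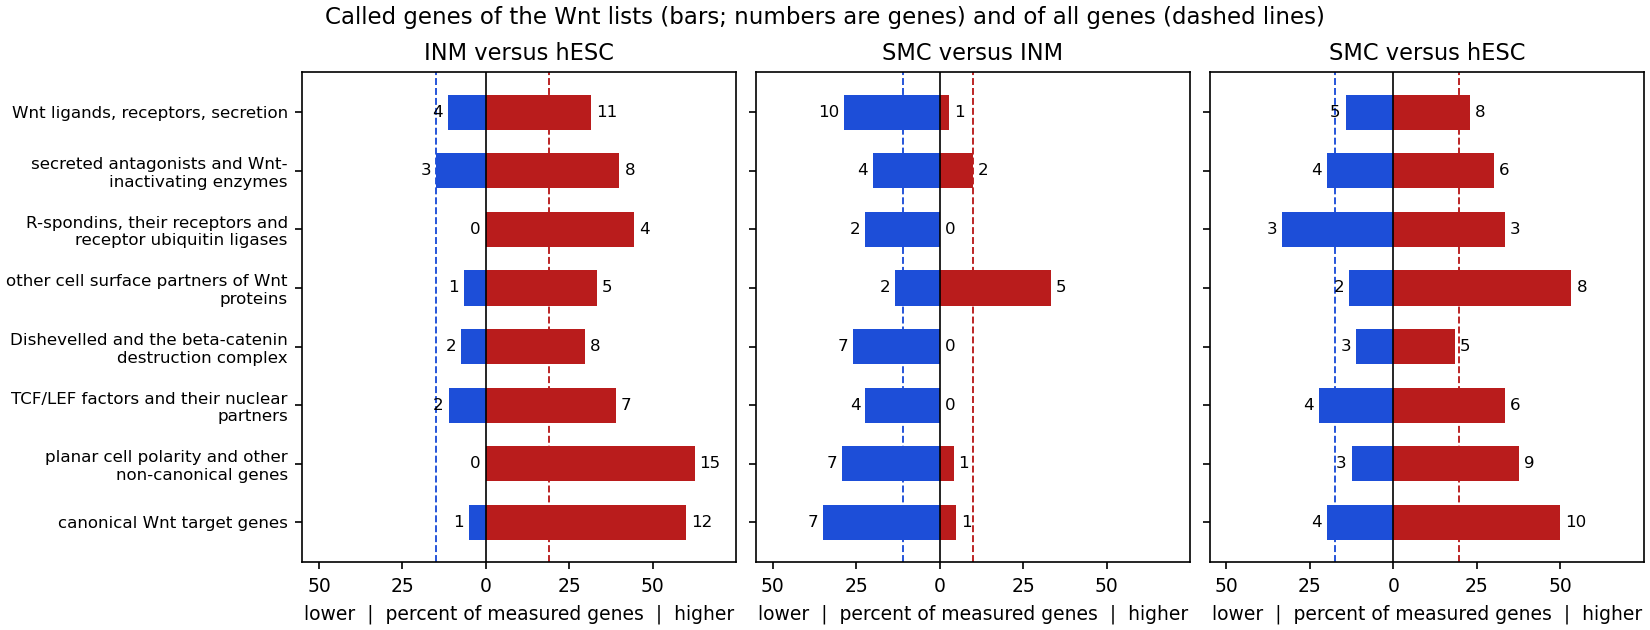
Percent of measured genes of each list called higher (red, right) and lower (blue, left) in each comparison, with the number of genes at the bar ends and dashed lines at the percent of all 18417 genes called. In INM versus hESC every list has a red bar beyond the dashed line at 18.9%, and in SMC versus INM the red bar of the surface partners (5 of 15) reaches well beyond the line at 9.94%, with antagonists (2 of 20) at it. Some genes are on more than 1 list, so the bars are not independent.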

How the data were processed

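RNA of 6 samples was measured on Affymetrix arrays, 1 array each. The authors deposited a table of log2 signals, 33297 probe sets by 6 arrays. Per the submitters' processing notes they used RMA and limma, with no version named. Their RMA settings and the array's genome build were not given in the sources used here, and scanner files were not used. Groups and replicate numbers came from the sample titles, and 0 columns belonged to another sample.

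In the platform annotation 19460 probe sets had 1 symbol, 1754 had several and 12083 had none. Entrez identifiers led to current names in a GRCh38.p14 gene table (19429 matched), and where a gene had several probe sets the brightest on average stood for it, which left 18417 genes. All genes were fitted in limma 3.58.1 (R 4.3.3) with 3 groups, lmFit and eBayes, two-sided, with Benjamini-Hochberg adjustment over all genes and a threshold of 0.05. The fit had 3 residual and 3.56 prior degrees of freedom. It was tested on simulated data.

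A fold is given where both group means exceed the 95th percentile of the olfactory receptor genes, averaged over the arrays compared. All members could be named, with values on each array for those called in at least 1 comparison. Of each pathway list, up to 3 called genes with the largest change per comparison were named, and all called genes of a direction with 5 or fewer could be. Marker lists served as a check of the labels, and AXIN2, on both the target and the destruction complex list, was named as 1 of the 3 largest falls from INM to SMC of the second. Members and lists were chosen with earlier results of these data known, so lists are described by counts and medians without a test. The alternatives were median centring, quantile normalization, an intensity trend, group weights, the 4 arrays of the compared groups, a low-signal filter, the mean of a gene's probe sets, the replicate block and leaving out each array.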

Additional observations from a re-analysis of the deposited data

How the results depend on the processing

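Of the members' calls, 10 of 15 (INM versus hESC), 5 of 11 (SMC versus INM) and 8 of 13 (SMC versus hESC) held in all 14 alternatives, which were 6 that leave out an array and 8 others. The 14 are not independent checks. In each comparison, leaving out an array of the group not compared gave the same values as fitting only the 4 arrays compared. Each member had 1 probe set, so the mean of a gene's probe sets could not alter its change. The members called lower in SMC than in INM numbered 10, and 6 when only the 4 arrays of those groups were fitted. Leaving out 1 array gave 7 to 15 members higher and 4 to 7 lower in INM versus hESC, 0 to 3 and 5 to 12 in SMC versus INM, and 3 to 9 and 5 to 6 in SMC versus hESC. The lowest counts were 7 higher in INM than in hESC (without hESC replicate 2), 0 higher and 5 lower in SMC than in INM (each without either SMC array) and 3 higher in SMC than in hESC (without SMC replicate 2). A group left with 1 array is assumed to vary like the others. With the replicate block the counts were 10 higher and 4 lower, 1 and 10, and 8 and 5. The deviations of equally numbered replicates had correlations of 0.0737, -0.119 and -0.067 between groups. Whether equal numbers pair the samples is not stated in the labels, and these correlations cannot settle it. The replicate block ended the call of WNT11 in INM versus hESC and no other member call. No called change was of opposite sign and called in any alternative, and 22 uncalled member changes differed in sign in at least 1. The low-signal filter left WNT8B and WNT16 without a test. Ligand signals near the olfactory receptor range and 2 arrays a group limit the precision.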
